A study of Mus musculus with 6 samples.

Results

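Imprinted genes are transcribed mainly from 1 parental copy, and 39 such mouse genes are described here in blood stem and progenitor cells that lacked or kept Trim28. The 39 were taken from a fixed list of gene symbols, grouped by imprinted cluster, out of 20892 genes named on the array. A probe was found for 38 of them, and Rian had none. The parent-specific state of an imprinted cluster is carried by DNA methylation at an imprinting control region, which is set in the germ line and kept through every cell division afterwards. The zinc finger protein ZFP57 binds a methylated hexamer in many control regions and recruits TRIM28 (also called KAP1 or TIF1b), a corepressor that brings in silencing enzymes and helps to keep the methylation. Several of the genes control fetal growth, and Igf2, H19, Dlk1 and Grb10 are known for high activity in fetal tissues and decline after birth. The arrays measure the sum of both parental copies, so they give levels and say nothing of which copy was active.

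The cells were KSL cells, sorted as c-Kit positive, Sca1 positive and negative for lineage markers, from mice on a C57BL6 background. There were 4 groups. Bone marrow KO (2 arrays) carried CreERT and floxed Tif1b alleles in adult mice, and bone marrow WT (2 arrays) carried CreERT with w/w alleles. Fetal liver KO (1 array) carried Tie2-Cre with floxed Tif1b alleles, and fetal liver WT (1 array) carried Tie2-Cre with w/w alleles. Tif1b is listed in the reference as Trim28. CreERT acts once tamoxifen is given, while Tie2-Cre acts in endothelial and blood-forming cells from early in development, so tissue, stage and Cre driver changed together and cannot be told apart. On both replicate 2 arrays of bone marrow the genotype is spelled Tif2b, which was taken as the same gene. Whether the arrays of a group stem from different animals is not labelled, and p-values measure the spread between these arrays, which may be technical.

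Values are log2 signals relative to the 75th percentile of each array, called levels below. A level of one gene is not set against that of another, since each comes from its own probe. Between 24398 and 31431 of 55681 probes were well above background per array, at 75th percentile signals of 211 to 743. The array labelled bone marrow WT replicate 1 stood apart: for 1.40% of its compared probes, its scanner file lay within 1% of the value deposited in the authors' table, against 100% on each of the other 5 arrays. A description line of that sample speaks of Hp1a knockdown cells without Sca1 in the gate, and the line of bone marrow KO replicate 1 of Hp1g knockdown cells. Every result is therefore given for both versions of that array, written as "x or y" with the scanner file first and the table column second. Trim28 read 1.28 and 0.75 in bone marrow KO, against 2.45 or 5.18 (replicate 1) and 5.55 in bone marrow WT, and 1.68 in fetal liver KO against 5.97 in fetal liver WT. Of 11 stem and progenitor markers, 11 were above background on both bone marrow KO arrays, 8 (scanner) or 11 (table) and 11 in bone marrow WT, 9 in fetal liver KO and 10 in fetal liver WT. The summed level of 10 B lymphoid markers was 272 times the 75th percentile in the scanner file of bone marrow WT replicate 1, against 14.3 to 42.0 in the other values.

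Which of these genes the cells expressed at all was the first question. Of the 38 measured, 13 were well above background on all 6 arrays. These were Cd81, Tspan32, Kcnq1ot1, Slc22a18, Ndn, Peg12, Ddc, Gnas, Mcts2, Zrsr1, Inpp5f, Impact and Igf2r. Another 5 were above background on no array, namely the retrotransposon-derived Rtl1, the zinc finger genes Peg3 and Zim1, the deubiquitinase gene Usp29, and Nnat. Above background in fetal liver alone were 4 genes, Meg3, Mest, Slc38a4 and Rasgrf1, and 6 were above background on some bone marrow array and on no fetal liver array, namely Phlda2, Magel2, Mkrn3, Peg10, Asb4 and Dcn. The plot of levels by array shows these classes. Detection differed between the arrays, with 75th percentile signals of 211 in fetal liver KO, 219 in fetal liver WT, and 743 and 737 on bone marrow KO and WT replicate 2. Asb4, Dcn and Mkrn3 read -2.98, -3.10 and -2.98 in fetal liver KO without being above background there. These levels were higher than all their bone marrow values, so the class does not mean a higher level in bone marrow. A probe without signal also read lower in bone marrow: Usp29 read -6.08 and -6.99 in bone marrow KO, -6.30 or -6.39 and -7.05 in bone marrow WT, -5.49 in fetal liver KO and -5.41 in fetal liver WT, a mean difference of -1.16. Dim genes are therefore given bounds below. In bulk RNA, fewer expressing cells and less RNA per cell cannot be told apart.

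**Figure D1:**
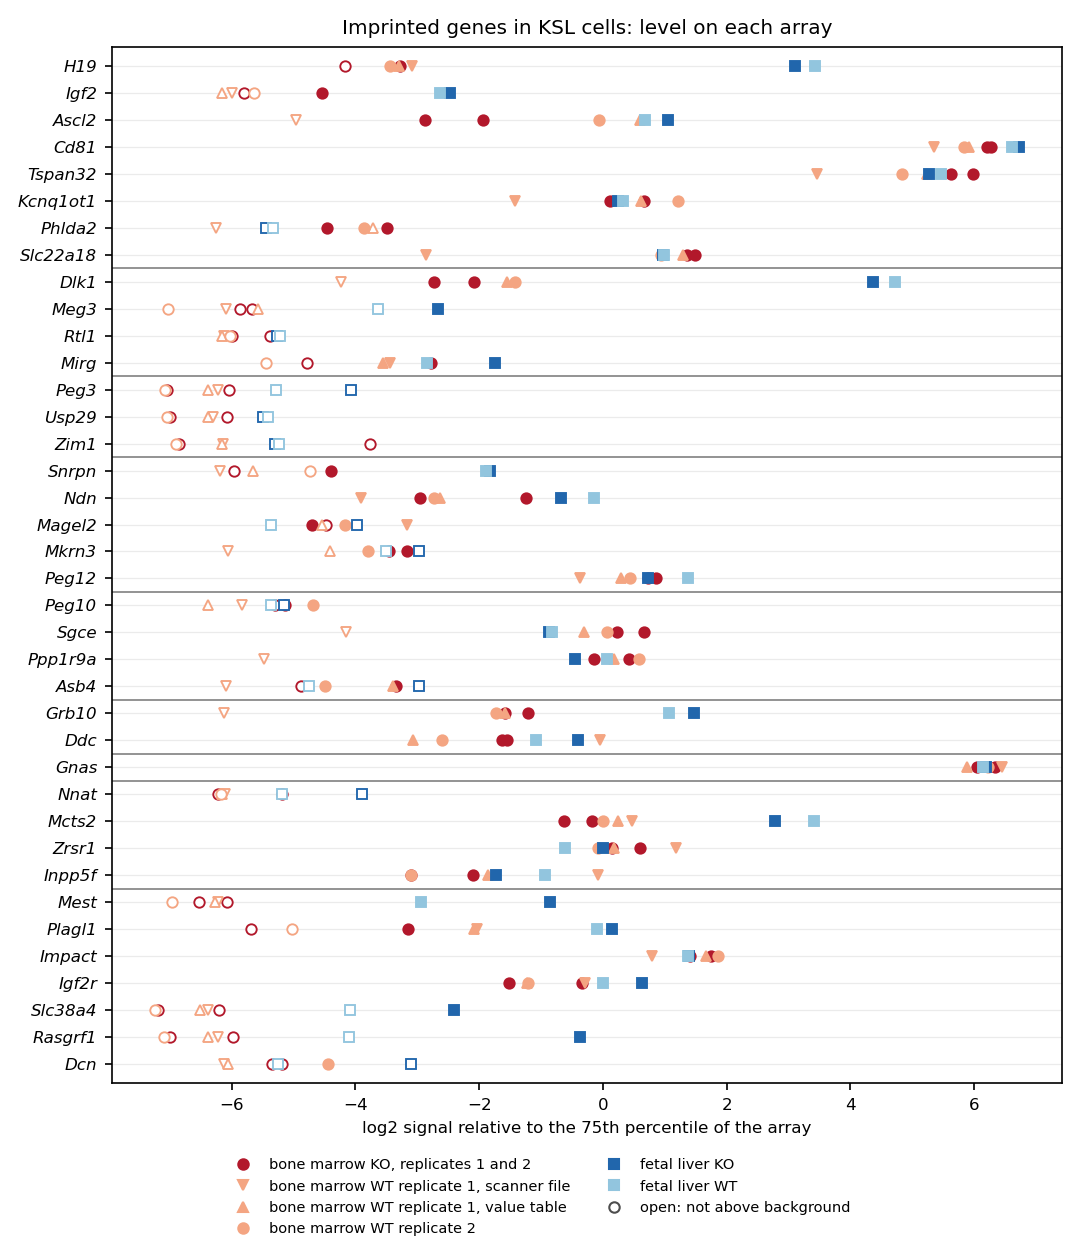
Level of 38 imprinted genes on each array, on the log2 scale relative to the 75th percentile of the array, grouped by imprinted cluster (grey lines); filled points were well above background and open points were not. H19 lies at 3.11 and 3.43 in fetal liver KO and WT and at -3.09 or lower in bone marrow, while Gnas lies between 5.89 and 6.46 everywhere.

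Promoter sequences are shown for genes that differed between the tissues or were above background in 1 tissue alone, since the ZFP57 hexamer ties this list to TRIM28. RefSeq windows (GRCm38.p6) were found for 33 of the 39 genes. The 250 bases before each start were searched for TGCCGC on both strands. It was present in 6 of 51 windows, belonging to 5 genes (Meg3, Zim1, Mcts2, Mest and Plagl1), and in 8.68% of 32851 windows of all genes. The 6 count overlapping Mest windows, which start at 30737800 and 30737803, separately. Of the 21 genes singled out by expression, 17 had a window and 4 held the hexamer. The 8.68% counts windows and not genes, and no share of all genes was taken for the hexamer. Below, capitals mark it, and the Rasgrf1 window, which has none, is shown because Rasgrf1 was the gene furthest apart between the fetal liver arrays. The control regions of imprinted clusters often lie outside these windows, so absence of the letters here says nothing of ZFP57 binding.
Mest, chr6:30737800-30738049, plus strand: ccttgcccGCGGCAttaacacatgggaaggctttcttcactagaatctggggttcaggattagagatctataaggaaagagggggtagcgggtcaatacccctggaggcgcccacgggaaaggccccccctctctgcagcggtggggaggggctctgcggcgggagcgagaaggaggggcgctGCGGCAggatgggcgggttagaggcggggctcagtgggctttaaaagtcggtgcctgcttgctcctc
Plagl1, chr10:13090582-13090831, plus strand: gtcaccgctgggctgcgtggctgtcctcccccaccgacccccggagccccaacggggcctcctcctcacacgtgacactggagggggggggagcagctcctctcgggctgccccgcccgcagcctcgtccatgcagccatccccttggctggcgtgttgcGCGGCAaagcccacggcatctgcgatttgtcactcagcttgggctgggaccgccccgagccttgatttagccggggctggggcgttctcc
Mcts2, chr2:152686898-152687147, plus strand: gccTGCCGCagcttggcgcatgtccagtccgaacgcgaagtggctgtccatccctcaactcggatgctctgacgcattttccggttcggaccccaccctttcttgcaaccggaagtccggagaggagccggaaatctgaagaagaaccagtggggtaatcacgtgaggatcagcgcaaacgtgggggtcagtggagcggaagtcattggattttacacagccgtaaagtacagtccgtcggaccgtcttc
Meg3, chr12:109540746-109540995, plus strand: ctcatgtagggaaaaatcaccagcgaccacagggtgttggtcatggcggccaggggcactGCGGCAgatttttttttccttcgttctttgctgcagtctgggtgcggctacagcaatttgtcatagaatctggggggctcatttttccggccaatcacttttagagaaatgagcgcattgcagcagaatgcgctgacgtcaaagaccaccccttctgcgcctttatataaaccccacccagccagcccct
Rasgrf1, chr9:89909525-89909774, plus strand: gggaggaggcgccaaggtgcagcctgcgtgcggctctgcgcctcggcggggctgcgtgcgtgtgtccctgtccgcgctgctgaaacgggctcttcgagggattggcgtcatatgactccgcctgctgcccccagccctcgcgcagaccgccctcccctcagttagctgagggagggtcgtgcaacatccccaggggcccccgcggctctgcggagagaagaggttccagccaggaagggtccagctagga
These windows hold 14, 19, 20, 10 and 21 CpG, in the order shown. The median was 6 over all windows and 8 over the 51 windows of the imprinted genes. All but the Rasgrf1 window were picked for the hexamer, which itself holds a CpG. Where a gene had several windows, the one with most hexamers and then most CpG was shown. The selection favours high counts, so nothing is drawn from their excess over the medians. The hexamer occurs at 2 places in the Mest window and at 1 place each in those of Plagl1, Mcts2 and Meg3.

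No imprinted gene passed the test between KO and WT bone marrow. With limma over 2 KO and 2 WT arrays and Benjamini-Hochberg adjustment over all genes, 0 of 22 imprinted genes tested were called at an adjusted p under 0.05 with the scanner files, where 0 of 13186 genes (0%) were called in all. With the table column, 0 of 22 were called, beside 105 of 12949 genes (0.811%). Unadjusted p-values under 0.05 numbered 1 of 22 (scanner; 4.24% of all genes) and 4 of 22 (table; 11% of all genes). The median difference, KO minus WT, was 0.45 for the imprinted genes and 0.06 for all genes tested with the scanner files, and 0.20 and -0.05 with the table. In the table, Trim28 itself was called (log2 difference -4.34 ± 0.31 SE, limma adjusted p = 0.016). Without bone marrow WT replicate 2, the scanner files leave 1 WT array, the one that stood apart, whose spread is assumed to be that of the other arrays, and 13 imprinted genes and 2399 of 13593 genes in all were then called.

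Blood cell markers also differed between KO and WT bone marrow. With the table, 8 of 8 neutrophil markers read lower in KO, and Camp, Elane, Mmp8 and S100a9 were called (median of the 8, -2.98). Of the 8 erythroid markers tested, 8 read higher in KO and 0 were called (median 3.47), while Pdgfrb and Thy1 of the stromal list were called higher and the hepatocyte gene Afp lower. With the scanner files no marker was called, and 8 of 8 neutrophil markers (median -4.47) and 8 of 8 B lymphoid markers (median -2.88) read lower in KO. With the table, 3 of 4 B lymphoid markers tested read higher in KO (median 0.29), so their direction turned with the source. Erythroid markers read higher in KO for 7 of 8 with the scanner files (median 0.47). Summed levels of the neutrophil markers were 263 and 25.5 in KO, against 1461 or 1293 and 666 in WT, and those of the erythroid markers 580 and 75.1 in KO, against 2199 or 22.7 and 17.0 in WT. Their part in the bone marrow values of the imprinted genes was not tested.

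The gene nearest to a call in bone marrow was Ascl2, a basic helix-loop-helix transcription factor gene of the Kcnq1ot1 domain known for its role in placenta. Ascl2 read -1.93 and -2.88 in bone marrow KO, -4.96 or 0.60 and -0.07 in bone marrow WT, 1.05 in fetal liver KO and 0.68 in fetal liver WT. With the table column both KO arrays lay below both WT arrays, and with the scanner file the groups overlapped. The difference was -2.67 ± 0.43 (SE, n = 2 each, limma adjusted p = 0.074) in the table and 0.11 ± 1.63 (adjusted p = 1.00) in the scanner files. Within the pairs it was 3.03 or -2.53 in pair 1 and -2.81 in pair 2, so the direction of pair 1 turned with the source of 1 array. Without bone marrow WT replicate 2, Ascl2 was called in opposite directions, at 2.56 ± 0.55 (scanner, adjusted p = 0.0022) and -3.01 ± 0.53 (table, adjusted p = 0.00011). Ddc, the gene of aromatic amino acid decarboxylase, next to Grb10, read -1.63 and -1.55 in KO and -0.04 or -3.06 and -2.61 in WT bone marrow. Its difference was 1.25 ± 0.28 (adjusted p = 0.16) in the table and -0.26 ± 0.89 (adjusted p = 1.00) in the scanner files. Ascl2 and Ddc were the 2 imprinted genes called in the table when the replicate number, which pairs 1 KO with 1 WT array, was a block. In that limma fit 973 genes were called in all, with Ascl2 at an adjusted p of 0.0037 and Ddc at one of 0.026.

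Tspan32 and Cd81, tetraspanin genes at the edge of the same domain, were higher on both KO arrays than on both WT arrays of bone marrow in either source. Tspan32 read 5.98 and 5.63 in KO, against 3.46 or 5.25 and 4.84 in WT, a difference of 1.65 ± 0.58 (scanner, adjusted p = 1.00) or 0.76 ± 0.29 (table, adjusted p = 0.42). Cd81 read 6.27 and 6.21 in KO and 5.36 or 5.91 and 5.84 in WT, and its difference was 0.64 ± 0.39 or 0.36 ± 0.24 (adjusted p = 1.00 or 0.76). Slc22a18, a transporter gene, read 1.48 and 1.36 in KO, against -2.86 or 1.30 and 0.94 in WT. Groups without overlap numbered 9 of 22 imprinted genes with the scanner files, against 28.7% of all genes, and 11 of 22 with the table, against 37.2%. In both sources these were Tspan32, Cd81, Slc22a18, Grb10, Mkrn3, Peg12 and Sgce, read higher in KO, and Mcts2, read lower in KO, and no difference passed the test. Kcnq1ot1, the long antisense RNA that silences its domain on the paternal copy, read 0.11 and 0.66 in KO and -1.42 or 0.62 and 1.21 in WT. Pair 1 gave Kcnq1ot1 a difference of 1.53 or -0.51 and pair 2 one of -0.55, so its direction too turned with that array.

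No other imprinted gene was called in bone marrow either. Sgce, an epsilon-sarcoglycan gene, read 0.23 and 0.66 in KO and -4.16 or -0.31 and 0.07 in WT. Ppp1r9a, its neighbour, read -0.15 and 0.42 in KO, against -5.48 or 0.18 and 0.58 in WT. Peg12, an intronless gene of the Snrpn domain, read 0.72 and 0.85 in KO and -0.36 or 0.30 and 0.44 in WT. For Sgce and the brightest Peg12 probe both KO arrays were above both WT arrays in either source, and for Ppp1r9a the groups overlapped in both. The second Peg12 probe read -2.05 and -3.01 in KO and -1.96 or -2.42 and -3.47 in WT. It was above background on every array, and its groups overlapped in both sources. Gnas, which encodes the stimulatory G protein alpha subunit, read 6.05 and 6.34 in KO and 6.46 or 5.89 and 6.23 in WT, with overlapping groups. Zrsr1, a retrogene inside an intron, read 0.59 and 0.15 in KO and 1.18 or 0.18 and -0.08 in WT. Inpp5f, a phosphoinositide phosphatase gene, read -2.10 and -3.11 in KO and -0.08 or -1.86 and -3.11 in WT. Impact, a regulator of the amino acid stress kinase GCN2, read 1.41 and 1.75 in KO, against 0.79 or 1.67 and 1.86 in WT. Over all alternatives tried, the sign of the KO minus WT difference changed at least once for 12 of 22 genes (scanner) and 8 of 22 (table). Of 23 imprinted genes above background in either value of bone marrow WT replicate 1, 14 differed over 2-fold between its scanner file and its table column. The scanner value was the lower one for 10 of them, and for 22 of the 23 the table value was nearer to bone marrow WT replicate 2.

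**Figure D2:**
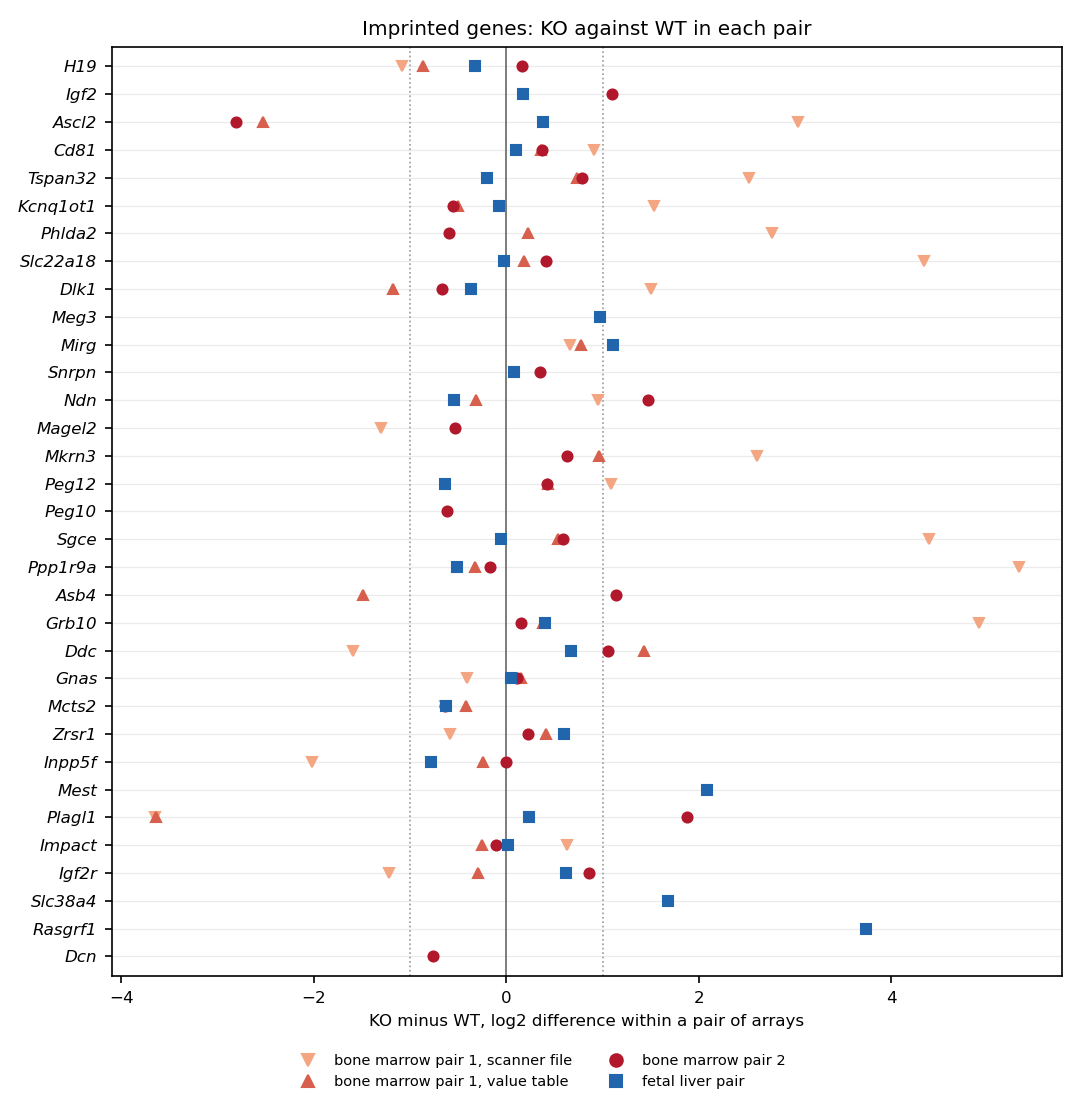
KO minus WT log2 difference within each pair of arrays, for imprinted genes above background on at least 1 array; a point is drawn where at least 1 array of the pair was above background, and dotted lines mark a 2-fold difference. Pair 1 of bone marrow reads 5.32 or -0.33 for Ppp1r9a and 3.03 or -2.53 for Ascl2, depending on the source of its WT array, and Rasgrf1 is at 3.74 in fetal liver.

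In fetal liver, 4 imprinted genes read at least 2-fold higher in KO and none at least 2-fold lower, from 1 array per genotype and therefore with no test. They were Rasgrf1, Mest, Slc38a4 and Mirg, out of 27 imprinted genes above background on at least 1 of these arrays. Among 12886 genes, 696 (5.4%) were at least 2-fold higher in KO and 577 (4.48%) at least 2-fold lower. Rasgrf1 and Slc38a4 were compared through the KO array alone, and where both arrays had to be above background, Mest and Mirg were the 2 genes past 2-fold, beside 587 of 11856 genes. The median difference was 0.07 over the 27 imprinted genes and -0.06 over all genes. The 4 genes have no place in common: they belong to 4 separate loci.

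Rasgrf1, a paternally expressed gene for a Ras exchange factor known from brain, read -0.36 in fetal liver KO and -4.10, not above background, in fetal liver WT. That is at least 13.3-fold higher in KO by the rule for bounds, with the WT probe, not above background, counted at its own signal. A Kcnq1ot1 probe was not above background on that WT array even at -3.02, so the bound is not strict. Rasgrf1 read -5.98 to -7.09 on the 2 KO and 2 WT arrays of bone marrow and was not above background there. The other Rasgrf1 probe was above background on no array. Mest, the gene of an alpha/beta hydrolase expressed in mesodermal tissues, read -0.86 in fetal liver KO and -2.94 in fetal liver WT, a 4.24-fold difference. A further Mest probe was above background on the KO array alone, and the third nowhere. Slc38a4, an amino acid transporter gene active in placenta and liver, read -2.41 in KO and -4.08, not above background, in WT, at least 3.20-fold higher in KO. Mirg, a noncoding RNA of the Dlk1-Meg3 domain that hosts microRNAs, read -1.74 in KO and -2.84 in WT (2.15-fold). Meg3, from the same domain, was just under the 2-fold limit, at -2.67 in KO and -3.64, not above background, in WT. With normexp background correction the folds of these genes were smaller, at 2.57 for Rasgrf1, 1.94 for Mest, 1.39 for Slc38a4 and 1.44 for Mirg. The bounds of Rasgrf1 and Slc38a4 therefore hold for the main background correction alone. Over all genes, 424 of 12886 were past 2-fold under normexp, against 1273 in the main setting.

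Markers of other cell types also differed between the fetal liver arrays. Of 11 hepatocyte markers compared, 7 read at least 2-fold lower in KO and 1, Fga, at least 2-fold higher, with Alb, the albumin gene, at -2.19 in KO and -0.42 in WT. Of the 13 listed, 7 were above background in KO and 10 in WT, with summed levels of 35.4 in KO and 50.8 in WT, or 10.8 and 20.4 without Trf, the brightest. Of 9 stromal and fibroblast markers compared, 4 were at least 2-fold higher in KO and 0 lower, namely Col1a1 (-0.85 in KO and -3.10 in WT), Col3a1, Cxcl12 and Thy1. The summed level of the 12 listed was 36.7 in KO and 32.0 in WT, and Dcn, Lum and Pdgfra were above background on neither array. Of 7 B lymphoid markers compared, 5 were at least 2-fold lower in KO (median -2.25), among them Vpreb3 at -3.58, not above background, in KO and 2.28 in WT. Of 9 erythroid markers 4 were at least 2-fold higher in KO, with summed levels of 1587 in KO and 890 in WT, and of 8 neutrophil markers Ltf, Ngp and Mmp8 were higher and Camp and Elane lower. Of 9 endothelial markers, 5 were above background in KO and 6 in WT, with summed levels of 44.0 in KO and 40.5 in WT, and of 8 T and NK markers compared 1 was at least 2-fold higher and 2 lower. Their part in the 4 differences was not tested.

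The other genes of fetal liver differed by less than 2-fold, in both directions. H19 read 3.11 in KO and 3.43 in WT, and Igf2 -2.47 in KO and -2.64 in WT. Dlk1 read 4.36 in KO and 4.72 in WT. Snrpn, which encodes a splicing protein, read -1.82 in KO and -1.89 in WT, and the growth suppressor gene Ndn -0.68 in KO and -0.14 in WT. The differences were -0.32 for H19, 0.17 for Igf2, -0.36 for Dlk1, -0.08 for Kcnq1ot1 and 0.07 for Snrpn. Meg3 and Mirg, from the domain of Dlk1, differed by 0.97 and 1.11. Peg12 was at 0.73 in KO and 1.37 in WT, and Inpp5f at -1.72 and -0.94. Zrsr1 was at -0.01 in KO and -0.61 in WT, Igf2r at 0.63 and 0.00, and Ddc at -0.40 and -1.07. Whether differences of this size exceed the spread between fetal livers cannot be told from 1 array each.

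Over both tissues, with tissue in the model, KO and WT did not differ past the test for any of 30 imprinted genes in either source. The share called among all genes was 0% of 13873 (scanner) and 0.175% of 13708 (table). Differences above 0 numbered 24 of 30 (scanner) and 20 of 30 (table), with a median of 0.38 and 0.24, beside 0.02 and -0.05 over all genes. Unadjusted p-values under 0.05 numbered 1 and 4 of 30, against 3.45% and 10.3% of all genes. The interaction, which asks if the KO minus WT difference was unequal in the tissues, called 0 of 30 in either source (0% of all genes in both), with 2 and 3 of 30 at an unadjusted p under 0.05, against 2.66% and 7.08% of all genes. Rasgrf1 had the lowest adjusted p in the table, 0.32, at a difference of -3.43 ± 0.80 (SE, limma). The spread in this fit comes from the bone marrow arrays and is assumed to hold for fetal liver.

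Between the tissues, Dlk1, H19, Igf2, Meg3, Mest and Mcts2 were called lower in bone marrow in both sources. With the scanner files 6 of 30 imprinted genes were called lower in bone marrow and none higher, against 291 of 13873 genes called (2.1%) and 171 called lower (1.23%). With the table column, 16 of 30 were called, 14 lower and 2 higher, against 3122 of 13708 genes called (22.8%) and 1904 called lower (13.9%). The median difference, bone marrow minus fetal liver, was -1.06 (scanner) or -1.43 (table) over the imprinted genes and -0.30 or -0.26 over all genes. These counts and medians depend on how genes entered the test. Of the 30, 19 were above background throughout a group of each tissue, and 3 of them (scanner; Dlk1, H19 and Mcts2) or 8 (table; 7 lower and 1 higher) were called. Another 8 entered through fetal liver alone, where a group is 1 array, and 3 or 7 of these were called lower, while 3 entered through bone marrow alone, with 0 or 1 called. With a filter on all arrays 1 (scanner) or 8 (table) imprinted genes were called. The fit was limma with tissue and genotype as terms over 6 arrays. Unadjusted p-values under 0.05 numbered 13 of 30 (scanner; 27.1% of all genes) and 19 of 30 (table; 42.1%). The tissues did not overlap for 15 of 30 (scanner; 46.6% of all genes) and 20 of 30 (table; 54.7%). With the scanner files, leaving out either fetal liver array or either bone marrow KO array left 0 imprinted genes called, with 0 or 1 gene in all. Leaving out bone marrow WT replicate 2 left 1, with 10 genes in all, and leaving out bone marrow WT replicate 1 gave 12, with 1553 in all. With the table, leaving out fetal liver KO gave 6 (827 in all), fetal liver WT 9 (1372) and bone marrow WT replicate 2 gave 10 (1140). With the slide, as read from the scanner files, as a random replicate block the table count was 8 (835 genes in all). The genes that then lost their table call were Meg3 (adjusted p = 0.055), Ddc (0.063), Phlda2 (0.085), Rasgrf1 (0.0997), Sgce (0.13), Igf2r (0.13), Ndn (0.16) and Plagl1 (0.18). Fetal liver lies on 1 slide of its own, so tissue and slide cannot be told apart.

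**Figure D3:**
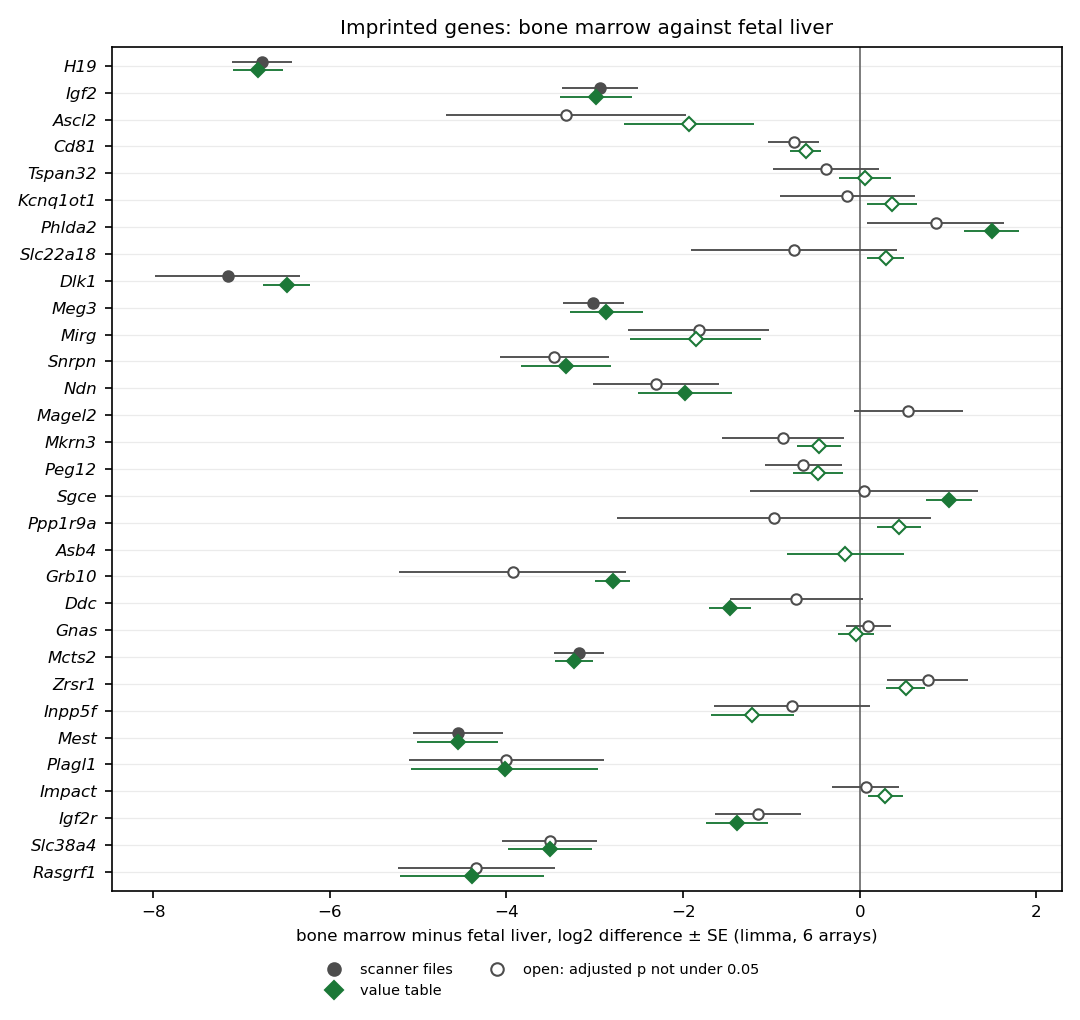
Bone marrow minus fetal liver log2 difference with its SE (limma, tissue and genotype as terms, 6 arrays) for each imprinted gene tested, with the scanner files (circles) and the value table (diamonds); filled points have an adjusted p under 0.05. Dlk1 lies at -7.16 (scanner files) and -6.49 (value table), and Phlda2 and Sgce are called above 0 with the value table.

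H19 and Igf2, which share enhancers and a control region on chromosome 7, were both called in both sources. H19, a noncoding RNA, read -4.17 (not above background) and -3.28 in bone marrow KO, -3.09 or -3.30 and -3.44 in bone marrow WT, 3.11 in fetal liver KO and 3.43 in fetal liver WT. All bone marrow values lay below 0 and both fetal liver values above it. The difference was -6.77 ± 0.34 (scanner, adjusted p = 0.0082) or -6.82 ± 0.29 (table, adjusted p = 0.0010). The 4 other H19 probes were above background on both fetal liver arrays and on no bone marrow array, and put H19 at least 74.8-fold to 707-fold (scanner) or 61.5-fold to 494-fold (table) lower in bone marrow. Igf2, a fetal growth factor, was above background on 1 of 4 bone marrow arrays. It read -5.80 and -4.54 in bone marrow KO, -5.99 or -6.16 and -5.64 in bone marrow WT, -2.47 in fetal liver KO and -2.64 in fetal liver WT. Its difference was -2.94 ± 0.43 (adjusted p = 0.046) or -2.99 ± 0.41 (adjusted p = 0.010), with no overlap.

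Other genes of the Kcnq1ot1 domain differed less. Cd81 read 6.72 in fetal liver KO and 6.62 in fetal liver WT, so bone marrow lay 0.75 or 0.61 lower, with no overlap and adjusted p = 0.18 or 0.059. Ascl2 differed by -3.33 ± 1.36 or -1.94 ± 0.74 (adjusted p = 0.19 or 0.11). Tspan32 was at 5.26 in fetal liver KO and 5.46 in fetal liver WT, Kcnq1ot1 at 0.24 and 0.32, and Slc22a18 at 0.97 and 0.99. The bone marrow values of these 3 genes spanned the fetal liver values, and the other Tspan32 probes put bone marrow 0.78 and 0.95 higher by their means where the brightest put it 0.39 lower. Phlda2, which restrains placental growth, was called higher in bone marrow in the table (1.49 ± 0.31, adjusted p = 0.027). It read -3.50 and -4.46 in bone marrow KO, -6.26 or -3.72 and -3.87 in bone marrow WT, and -5.44 and -5.33, not above background, in fetal liver KO and WT. As a bound, Phlda2 was at least 1.34-fold higher in bone marrow, and with the scanner file the tissues overlapped.

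In the Dlk1-Meg3 domain on chromosome 12 the paternally expressed Dlk1 and the maternally expressed Meg3 were both called lower in bone marrow. For Meg3 this rests on 1 of its 3 probes. Dlk1, a transmembrane protein of fetal progenitors, read -2.73 and -2.09 in bone marrow KO, -4.23 (not above background) or -1.56 and -1.42 in bone marrow WT, 4.36 in fetal liver KO and 4.72 in fetal liver WT. Its difference was -7.16 ± 0.82 (143-fold, adjusted p = 0.029) or -6.49 ± 0.27 (89.9-fold, adjusted p = 0.0010). The second Dlk1 probe was above background in fetal liver alone, and read at least 95.4-fold or 66.0-fold lower in bone marrow. Meg3 was above background on the fetal liver KO array only, and read -5.87 and -5.68 in bone marrow KO and -6.10 or -5.58 and -7.03 in bone marrow WT. By the rule for bounds it was at least 6.50-fold (scanner) or 4.50-fold (table) lower in bone marrow (limma adjusted p = 0.029 or 0.012). The fetal liver WT array counted there at -3.64, though not above background, so the bound is not strict. The other Meg3 probes were above background on no array. Their mean differences were -1.23 and -1.22 with the scanner files, near the -1.16 of the Usp29 probe without signal. Mirg read -2.78 and -4.79 in bone marrow KO and -3.44 or -3.56 and -5.45 in bone marrow WT, overlapped the fetal liver values, and was not called (adjusted p = 0.21 or 0.12).

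Snrpn and Ndn, from the domain deleted in human Prader-Willi syndrome, were called lower in bone marrow with the table. Snrpn read -5.96 and -4.39 in bone marrow KO and -6.19 or -5.65 and -4.74 in bone marrow WT, above background on 1 of 4 arrays, and its difference was -3.46 ± 0.62 (adjusted p = 0.063) or -3.33 ± 0.51 (adjusted p = 0.013). Ndn read -2.96 and -1.25 in bone marrow KO and -3.91 or -2.64 and -2.73 in bone marrow WT, all below both fetal liver values, with a difference of -2.30 ± 0.71 (adjusted p = 0.14) or -1.98 ± 0.53 (adjusted p = 0.0499). Peg12 differed by -0.64 ± 0.44 or -0.48 ± 0.28, with overlap (adjusted p = 0.38 or 0.25). Magel2 and Mkrn3 were above background on 3 of 4 bone marrow arrays with the scanner files and on no fetal liver array. Magel2 read -4.47 (not above background) and -4.70 in bone marrow KO, -3.16 or -4.54 and -4.17 in bone marrow WT, -3.98 in fetal liver KO and -5.37 in fetal liver WT. Mkrn3, a ubiquitin ligase gene, read -3.45 and -3.16 in bone marrow KO, -6.05 or -4.42 and -3.79 in bone marrow WT, -2.98 in fetal liver KO and -3.51 in fetal liver WT. Both overlapped between the tissues.

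On chromosome 11, Grb10 encodes an adaptor that dampens insulin and insulin-like growth factor signalling. It read -1.21 and -1.58 in bone marrow KO, -6.12 (not above background) or -1.58 and -1.73 in bone marrow WT, 1.47 in fetal liver KO and 1.07 in fetal liver WT. The table difference was -2.79 ± 0.20 (6.94-fold, adjusted p = 0.0024). With the scanner file the difference was larger in size but so was its error (-3.93 ± 1.29, adjusted p = 0.14), since the spread then includes the array at -6.12. Its neighbour Ddc was called with the table column at -1.47 ± 0.24 (adjusted p = 0.015), whereas the scanner files gave -0.72 ± 0.75 (adjusted p = 0.56). In the Peg10-Sgce domain on chromosome 6, Sgce read -0.88 in fetal liver KO and -0.82 in fetal liver WT and was called higher in bone marrow in the table (1.01 ± 0.26, adjusted p = 0.045) but not with the scanner files (0.05 ± 1.29, adjusted p = 0.98). The table call of Sgce was lost in each of the 6 fits that leave out 1 array. Ppp1r9a read -0.44 in fetal liver KO and 0.07 in fetal liver WT, overlapping the bone marrow values. Asb4 was above background on 1 bone marrow KO array, at -3.34, and on bone marrow WT replicate 2, at -4.48, and in the table also on replicate 1, at -3.40. Peg10 and Dcn were above background on bone marrow WT replicate 2 alone, at -4.68 and -4.44.

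Mcts2, an imprinted retrogene lying in an intron of another gene, was called in both sources with little spread. It read -0.18 and -0.63 in bone marrow KO, 0.46 or 0.24 and 0.01 in bone marrow WT, 2.79 in fetal liver KO and 3.41 in fetal liver WT. Its difference was -3.18 ± 0.28 (9.08-fold, adjusted p = 0.023) or -3.24 ± 0.21 (9.44-fold, adjusted p = 0.0021). Retrogenes resemble their parent genes in sequence, and how far the probe also detects the parent was not tested. Zrsr1 differed by 0.77 ± 0.46 or 0.52 ± 0.22, Gnas by 0.10 ± 0.25 or -0.04 ± 0.20, and Impact by 0.07 ± 0.38 or 0.29 ± 0.20. None of these was called in either source. Inpp5f differed by -0.77 ± 0.89 or -1.21 ± 0.47 (adjusted p = 0.60 or 0.11).

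Mest, Slc38a4 and Rasgrf1 were above background on no bone marrow array. Mest read -6.07 and -6.53 in bone marrow KO and -6.23 or -6.27 and -6.96 in bone marrow WT, at least 16.5-fold (scanner) or 11.5-fold (table) lower than fetal liver (adjusted p = 0.029 or 0.0054). Slc38a4 was at least 6.49-fold or 4.54-fold lower (adjusted p = 0.0503 or 0.010), called in the table alone. For Rasgrf1 the bound was 13.1-fold or 9.16-fold (limma adjusted p = 0.081 or 0.021). The bounds of Slc38a4 and Rasgrf1 rest on the fetal liver KO array. The WT array was not above background for either gene and counted at its own signal, so these bounds are not strict. Plagl1, a zinc finger gene known to regulate other imprinted genes, read -5.69 and -3.15 in bone marrow KO, -2.04 or -2.08 and -5.03 in bone marrow WT, 0.15 in fetal liver KO and -0.09 in fetal liver WT. Its difference was -4.00 ± 1.103 (adjusted p = 0.12) or -4.02 ± 1.06 (adjusted p = 0.048), but its probes disagreed: a second one gave a mean difference of -4.05 and the other two 0.41 and 0.15. Igf2r, the receptor that clears IGF2 from the cell surface, read -1.51 and -0.35 in bone marrow KO, -0.29 or -1.22 and -1.21 in bone marrow WT, 0.63 in fetal liver KO and 0.00 in fetal liver WT. All bone marrow values of Igf2r were below those of fetal liver, and its difference was called in the table at -1.39 ± 0.35 (adjusted p = 0.045), while the scanner files gave -1.15 ± 0.49 (adjusted p = 0.20).

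Liver and blood cell markers also differed between the tissues. Of 11 hepatocyte markers tested, 3 (scanner) or 8 (table) were called lower in bone marrow and 0 higher, with a median of -2.54 or -2.55. Of the 13 listed, 5 and 6 were above background in bone marrow KO, 4 and 6 in bone marrow WT, 7 in fetal liver KO and 10 in fetal liver WT. Their summed levels without Trf, which carried most of the sum, were 12.2 and 11.3 in bone marrow KO, 5.20 or 9.07 and 10.2 in bone marrow WT, 10.8 in fetal liver KO and 20.4 in fetal liver WT. Alb was above background on both fetal liver arrays and on no bone marrow array, whereas Afp, the alpha-fetoprotein gene, was above background on all 6 arrays. Of 9 erythroid markers, 9 read lower in bone marrow, with 0 (scanner, median -1.96) or 6 (table, median -3.42) called. Of 8 neutrophil markers, 7 read lower in bone marrow, with 0 (scanner, median -2.84) or 3 (table, median -2.48) called. Of 9 stromal markers tested, 1 or 3 were called lower and 1, Thy1, higher, and of 6 endothelial markers 0 or 3 were called higher and 0 or 1 lower. Their part in the tissue differences of the imprinted genes was not tested.

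Genes that act with this list were also read. Of 50 further imprinted genes, 45 were measured, and 1 of 34 (scanner) or 10 of 33 (table) were called between the tissues. Qpct, a glutaminyl cyclase gene, was called higher in bone marrow in both (at least 3.82-fold or 3.51-fold, adjusted p = 0.047 or 0.0093). With the table column, 6 were higher: Qpct, Pon3 (2.16 ± 0.47) and Pon2 (1.40 ± 0.26), paraoxonase genes of the Peg10-Sgce domain, Osbpl5, Jade1 and Atp10a. The 4 lower ones were Sfmbt2 (-2.09 ± 0.27), Cdkn1c, a cell cycle inhibitor gene (-1.68 ± 0.33), Th and Trappc9. Their median difference was -0.19 or -0.17, against -0.30 or -0.26 over all genes. In bone marrow KO against WT, 0 of 32 were called in either source, with 2 and 7 at an unadjusted p under 0.05. In fetal liver 3 of 31, Kcnk9, Slc22a3 and Smoc1, were at least 2-fold higher in KO and none lower.

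Of 23 factors that keep or read imprints, all were measured. Trim28 alone was called lower in bone marrow KO, in the table. Zfp57 read -1.07 and -0.32 in bone marrow KO, 0.06 or -0.56 and -0.37 in bone marrow WT, -0.32 in fetal liver KO and -0.53 in fetal liver WT, above background on every array, and Zfp445, the gene of a second zinc finger protein that protects imprints, lay between 0.92 and 1.36. Between the tissues, 1 of 21 was called with the scanner files, the chromatin remodeller gene Atrx, higher in bone marrow (1.79 ± 0.24, adjusted p = 0.037), and 7 of 21 with the table. Among those called with the table, Atrx and Arid4b were higher in bone marrow, and Dnmt3b (-2.18 ± 0.21), Uhrf1 (-1.39 ± 0.29), Cbx5 and Dppa3 were lower. Dppa3 was above background on the fetal liver KO array alone, so its tissue call rests on that array. In fetal liver, Dppa3 read -1.67 in KO and -5.21, not above background, in WT. Dnmt3l read -0.79 in KO and -2.41 in WT, and Trim28 was the only one of the 23 at least 2-fold lower in KO.

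The insulin-like growth factor pathway also held genes that differed between the tissues. Igf2bp1 and Igf2bp3 encode RNA-binding proteins that bind Igf2 mRNA and are known as fetal genes. Igf2bp1 read -5.89 and -6.75 in bone marrow KO, -6.12 or -6.06 and -6.82 in bone marrow WT, 2.64 in fetal liver KO and 2.74 in fetal liver WT, at least 396-fold or 277-fold lower in bone marrow (adjusted p = 0.0043 or 0.00098). Igf2bp3 was at least 197-fold or 149-fold lower (adjusted p = 0.017 or 0.0010). These were the 2 of 16 called with the scanner files, and 6 of 16 were called with the table, all lower in bone marrow: Igf2bp1, Igf2bp2, Igf2bp3, Igfbp2, Igfbp5 and Foxo3. None of 13 (scanner) or 11 (table) was called between KO and WT in bone marrow, with 0 and 1 at an unadjusted p under 0.05. Igf1 and Igfbp5 were at least 2-fold higher in fetal liver KO, with Igf1 at -0.78 in KO and -2.02 in WT.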

How the data were processed

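KSL cell RNA was measured on 6 Agilent 1-colour arrays. Scanner files deposited by the authors give Cy3 intensity at 62976 spots (Agilent Feature Extraction 10.7.1.1, from the submitters' processing notes), with gProcessedSignal as background-corrected intensity per the file headers. The authors' deposited value table gives a linear ratio. For 5 arrays it equals the scanner signal over a constant near the 75th percentile, in the same direction and without centring of genes. Column medians were 0.056 and 0.064 for bone marrow KO, 0.057 and 0.063 for bone marrow WT, 0.0709 for fetal liver KO and 0.0705 for fetal liver WT.

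Levels are log2(gProcessedSignal) minus the array's 75th percentile, without control and outlier spots. RefSeq accessions named 27521 of 55681 probes (12 by a symbol in the file), and the brightest probe stands for a gene. Genes above background throughout at least 1 group were tested. For the table column of bone marrow WT replicate 1 a level of -3.7 replaced the flags, matching 99.1% of them on bone marrow KO replicate 1. A fold is a bound, "at least", where the dimmer group has no array above background. Each dim array then counts at its own signal or at the lowest signal of any probe above background there, whichever is higher. Probes above that lowest signal can still be unflagged. The brighter group counts at its mean signal, with arrays not above background at their own signal. For both reasons such a bound is not strict, and it holds for the main background correction alone. Tests used limma 3.58.1 (R 4.3.3, data.table at version 1.17.8), adjusted by Benjamini-Hochberg over all genes and tested on simulated data, with Python 3.11.15, pandas 2.3.3, numpy 2.4.6 and matplotlib 3.10.9 for the rest. The number of arrays limits the precision.

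The 39 genes and all lists were chosen with earlier results of these data known. All 39 are named, and of the other lists the genes called in any test. Other list genes past 2-fold in fetal liver, Zfp57, Zfp445 and single marker genes were named after their values were seen. Alternatives were normexp (offset 50, on median signals), quantile normalization, 2 other filters, the mean of all probes, the slide as a block and leaving out each array. The value of 1 listed factor is not reported here.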

Additional observations from a re-analysis of the deposited data

Results flagged for a closer look

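For 4 imprinted genes the fetal liver pair and the bone marrow pairs pointed opposite ways, KO minus WT, in both sources of values. Tspan32 differed by -0.199 in fetal liver and by 2.52 or 0.73 and 0.79 in the bone marrow pairs. Slc22a18 differed by -0.0217 in fetal liver and by 4.34 or 0.19 and 0.42 in bone marrow. Peg12 differed by -0.637 in fetal liver and by 1.09 or 0.43 and 0.42 in bone marrow. On its second probe, pair 1 of bone marrow read -2.05 in KO and -1.96 or -2.42 in WT, so the direction there turned with the source. Sgce differed by -0.0553 in fetal liver and by 4.39 or 0.54 and 0.59 in bone marrow. The interaction fit called none of the 4 (limma adjusted p = 0.97 for Tspan32, 1.00 for Slc22a18, 0.74 for Peg12 and 1.00 for Sgce with the table, and 1.00 for each with the scanner files). Fetal liver has 1 array per genotype, and the differences of Slc22a18 and Sgce there are close to 0. The sources share every array but bone marrow WT replicate 1, so they are not separate evidence. How many of all genes show opposite signs was not counted, so the 4 are not read as a trait of imprinted genes.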

How the results depend on the processing

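The source of bone marrow WT replicate 1 moved the tissue result most: taking that array from the value table gave 16 imprinted genes and 3119 genes in all, against 6 and 291 with the scanner files. None of the imprinted genes called in the main fits reversed under an alternative. In bone marrow KO against WT, where the main fits called none, Ascl2 and Ddc were called at -2.67 and 1.25 under the replicate block of the table and at 2.56 and -1.55 with the scanner files without bone marrow WT replicate 2. Under the alternatives that keep every array, Dlk1, H19 and Mcts2 stayed called between the tissues in both sources wherever they were tested, whereas Igf2, Meg3 and Mest lost their scanner call under normexp correction, Meg3 and Mest also with the mean of all probes, and Igf2 also with no filter. A filter on all arrays left 1 (scanner) or 8 (table) imprinted genes called, since fewer genes were then tested, and the slide as a random replicate block gave 8 in the table, with 835 genes in all against 3122. Leaving out 1 array gave 0 to 12 (scanner; 0 to 1553 genes in all) or 6 to 14 (table; 827 to 1673). For bone marrow KO against WT, leaving out 1 array gave 0 to 13 imprinted genes (scanner; 13, and 2399 genes in all, without bone marrow WT replicate 2) or 0 to 2 (table). The replicate block gave 2 in the table, with 973 genes in all against 105, while no filter gave 10 genes and a filter on all arrays 26. By the scanner files the numbers pair arrays of 1 slide, while the slide behind the table column of bone marrow WT replicate 1 is not given. Deviations of same-numbered arrays correlated at 0.09 (scanner) and 0.64 (table) across genes. Over both tissues every alternative gave 0 imprinted genes. The interaction gave 1, Rasgrf1, under quantile normalization of the table, beside 96 of 13708 genes in all. With the slide as a random replicate block it could not be fitted. Without 1 bone marrow array a group is 1 array, so calls from those interaction fits are not given. Without bone marrow WT replicate 2 (scanner), interaction differences included 6.12 for Ppp1r9a, 4.66 for Sgce, 4.32 for Grb10, 4.30 for Slc22a18, -4.01 for Rasgrf1 and -2.81 for Magel2. In fetal liver 4 genes past 2-fold became 1 under normexp, Rasgrf1, beside 424 of 12886 genes in all against 1273. A filter on all arrays left 2, Mest and Mirg, beside 587 of 11856 genes. The cause was not tested. Quantile normalization moved the median tissue difference of all genes from -0.30 to -0.06 (scanner) and from -0.26 to -0.04 (table), and 187 of 356 called genes were then higher in bone marrow, against 120 of 291 (scanner), and 1600 of 2968 against 1218 of 3122 (table). The median of the imprinted genes was then -1.03 and -1.37.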
